A study of Sus scrofa with 8 samples.

Results

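The set described here holds 7 genes, ACTL8, MLPH, PHF21B, PARVB, CYP4B1, SH3RF2 and F2RL1, of the 24358 genes in the count table. They were picked from the measured values of the 4 RNA-seq libraries described below, for their large changes with IRF-1 overexpression, and they lie outside the pathways IRF-1 is known for. Their own changes are therefore a description, and no test of them is given. IRF-1 is a transcription factor that interferons induce, and it binds response elements in the promoters of antiviral and antigen presentation genes. The 7 genes belong to no common pathway. PHF21B encodes a nuclear PHD finger protein, ACTL8 an actin-like protein, PARVB a focal adhesion protein and MLPH a linker of RAB27A to myosin Va. F2RL1, SH3RF2 and CYP4B1 encode a cell surface receptor, a ubiquitin ligase and an oxidizing enzyme.

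The libraries were made from DOX-hLIF-2i piPSCs, pig induced pluripotent stem cells derived from embryonic fibroblasts (PEFs) that carried an OCT4-tdTomato reporter, with the lentiviruses FUW-OSKM and FUW-M2rtTA, and kept in doxycycline with LIF and 2 kinase inhibitors. The cells of the overexpressing group (replicates 1 and 3) held PB-CAG-IRF1-Flag, integrated with the transposase plasmid PCAGPBase, so that the CAG promoter drove IRF1, and those of the control group (replicates 6 and 8) held PB-CAG-Flag. Cells of both groups were selected with puromycin, and feeder cells were removed before RNA extraction. The deposited growth label names another medium, the LCDMV culture system, and the 2 accounts of the medium differ.

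The comparison of the 2 groups asks how IRF-1 overexpression affects RNA levels. The deposited genotype label reads overexpression for all 4 RNA-seq libraries, whereas the paper assigns replicates 6 and 8 to the control, and the paper's assignment is used. IRF1 itself had 8206 counts in overexpressing replicate 1, 5485 in overexpressing replicate 3, 55 in control replicate 6 and 56 in control replicate 8. The 2 groups are thus far apart in IRF1, as the paper's assignment has them. In CPM, counts scaled to a common library size with TMM normalization, the mean level with overexpression was 297 ± 47.1 (SD, n = 2), and without it 3.36 ± 0.225 (SD, n = 2).

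The counts on genes summed to 24923319 in overexpressing replicate 1, 20858333 in overexpressing replicate 3, 15925429 in control replicate 6 and 17097669 in control replicate 8. The floor used below is 3 counts per library, which is 0.121 and 0.144 CPM in the overexpressing libraries and 0.192 and 0.172 CPM in the control libraries. Floors and counting intervals cover counting error only. Replicates of a group differed by a median fold of 1.13 (overexpressing) and 1.18 (control) over the 13250 genes tested, which is more than counting alone would give (chi-square over degrees of freedom 18.8 and 32.2). Nothing in the labels says that the replicates are separate cultures, so adjusted p-values here measure only the spread between these samples. For 1 gene alone, exact permutation of 2 against 2 libraries has a smallest two-sided p of 0.333.

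The cell label was checked against pluripotency markers. Of 20 such markers, 12 have a symbol in the count table and 7 could be tested, and DNMT3B was the most abundant, with 25707 and 20918 counts in overexpressing replicates 1 and 3 and 10849 and 17433 in control replicates 6 and 8. NANOG had 8 and 11 counts in the overexpressing replicates and 5 and 9 in the controls, and PRDM14 had 0 in all 4. DPPA5, FGF4 and GDF3 had 4 counts or fewer in each library. These markers were thus absent or at 11 counts or fewer in both groups. For markers without a symbol, the identifier lying at the RefSeq position was read: at POU5F1 it had 0 counts in 3 libraries and 1 in control replicate 8, and at ZFP42 and TFCP2L1 it had 0 in all 4. The TDGF1 position held 215 and 112 counts with overexpression against 71 and 63 in the controls, and the UTF1 position 364 and 502 against 287 and 542. At SOX2 the identifier, whose 6357 exon bases hold the 960 bases of the RefSeq gene, had 5395 and 4700 counts in the overexpressing replicates and 3652 and 3179 in the controls. The SOX2 position was therefore counted in every library, and the POU5F1 position held 1 count over all 4. OSKM stands for OCT4 (POU5F1), SOX2, KLF4 and MYC, and the paper reports from RT-PCR that these cells expressed endogenous SOX2 and still expressed the exogenous factors. Whether reads on these markers came from the lentiviruses was not tested. At SALL4 the longer identifier had 2809 and 3359 counts against 4165 and 4127 in the controls. The 12 markers summed to 1322 and 1294 CPM in overexpressing replicates 1 and 3 and to 1336 and 1504 CPM in control replicates 6 and 8. TERT was higher in the overexpressing cells (log2 fold change 2.21), and ESRRB (-4.19), KLF5 (-1.93) and LIN28A (-1.34) were lower. ESRRB had 31 and 37 counts in overexpressing replicates 1 and 3 and 502 and 402 in control replicates 6 and 8. The median log2 fold change over the list was -0.40 (-0.18 with DESeq2 and -0.12 without control replicate 8), beside -0.00 over all tested genes, of which 19.3% were called. These 4 calls became 2 without overexpressing replicate 1 (TERT 0.95, adjusted p = 0.296; KLF5 adjusted p = 0.256) and 2 without control replicate 8 (TERT adjusted p = 0.0505; KLF5 adjusted p = 0.169). The call of KLF5 was also lost without overexpressing replicate 3 (adjusted p = 0.0813) and with DESeq2 (adjusted p = 0.0959).

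Of the 7 genes, 4 were higher in the overexpressing cells (PHF21B, ACTL8, PARVB and MLPH) and 3 were lower (F2RL1, SH3RF2 and CYP4B1). Over the whole table, the quasi-likelihood test of edgeR, with p-values adjusted by the Benjamini-Hochberg method, called 19.3% of the 13250 tested genes, 8.61% as higher and 10.6% as lower. A call needed an adjusted p below 0.05 together with a log2 fold change of size 1 or more. Without overexpressing replicate 1, the genes called numbered 1630 in place of 2551. Since the 7 were chosen by this same contrast, nothing is read from their number against those shares. All 7 passed the filter on low counts, but ACTL8 and MLPH did so through the overexpressing libraries alone, and CYP4B1 and F2RL1 stood over it in both controls and in 1 overexpressing library. PHF21B, PARVB and SH3RF2 stood over it in all 4 libraries. The exon lengths of PHF21B, ACTL8, PARVB and SH3RF2 are multiples of 3, as are 48.5% of those in the table, and whether their gene models hold untranslated regions was not tested.

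**Figure D1:**
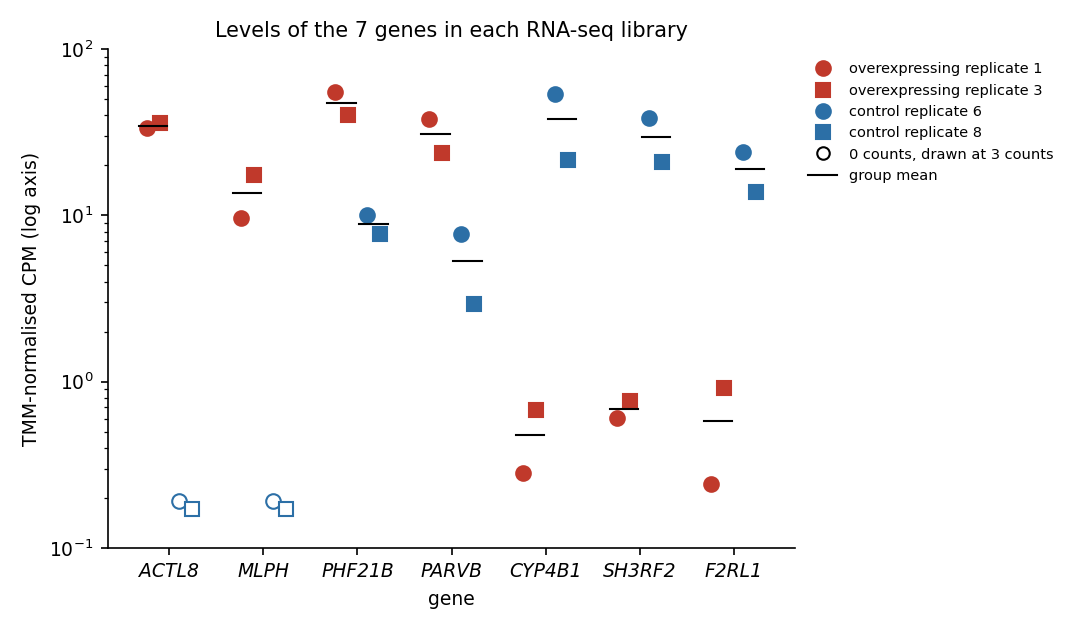
TMM-normalised CPM (log axis) of the 7 genes in each RNA-seq library, with circles for replicates 1 and 6, squares for replicates 3 and 8, red for overexpressing and blue for control cells, and a line at each group mean. Open symbols for ACTL8 and MLPH stand for 0 counts drawn at the floor of 3 counts.

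PHF21B is a paralogue of PHF21A, the subunit of the LSD1-CoREST histone demethylase complex that binds unmethylated histone H3 tails. The gene (ENSSSCG00000000020) lies on the plus strand of chromosome 5 in the assembly Sscrofa11.1, from 4291399 to 4385246, with 1443 exon bases. It had 1368 counts in overexpressing replicate 1, 833 in overexpressing replicate 3, 157 in control replicate 6 and 136 in control replicate 8. Both overexpressing libraries stood well above both controls, and it was counted in all 4. Its mean was 47.6 ± 10.6 CPM (SD, n = 2), compared with 8.91 ± 1.61 CPM (SD, n = 2) for the controls, a 5.34-fold difference between the means (log2 ratio 2.42). Over the 4 pairs of an overexpressing with a control library, the fold ranged from 3.99 to 7.08. On the TPM scale, which divides each count by exon length and brings every library to the same total so that genes can be compared, PHF21B was at 79.8 ± 17.1 (SD, n = 2) in the overexpressing cells, above 89.8% of detected genes, and at 16.1 ± 2.03 (SD, n = 2) in the controls, above 57.8%. It was thus moderately expressed in the controls and among the upper genes in the overexpressing cells.

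Of 16 tested genes in the list of the LSD1-CoREST complex and related genes, 1 was called, beside 19.3% of all tested genes. It was the demethylase KDM1B, which was higher, whereas KDM1A, the LSD1 of the complex, was not called (log2 fold change 0.09). KDM1B had 953 and 534 counts in overexpressing replicates 1 and 3 and 179 and 158 in control replicates 6 and 8 (log2 fold change 1.65, SE 0.26, adjusted p = 0.00313), and its exons share 268 bases with TPMT and 195 with an unnamed gene on the opposite strand. The list's median log2 fold change was 0.00, and that of all tested genes was -0.00. The paralogue PHF21A had 1147 and 873 counts against 451 and 446 in the controls, and its log2 fold change of 0.70 (SE 0.16, adjusted p = 0.0161) was below the size needed for a call. HDAC2, a deacetylase and the most abundant gene of the list by CPM, had a log2 fold change of 0.19 (SE 0.12, adjusted p = 0.291). The files do not give the strand setting of the counting, so where exon bases are shared across strands, here and below, the reads of the 2 genes cannot be told apart.

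ACTL8 is an actin-like protein known from testis and catalogued as a cancer/testis antigen. The gene (ENSSSCG00000024062) lies on the plus strand of chromosome 6, from 76354761 to 76358460, with 1062 exon bases. It had 832 counts in overexpressing replicate 1 and 746 in overexpressing replicate 3, whereas control replicates 6 and 8 had 0 each. ACTL8 was therefore seen in the overexpressing libraries alone, and those 2 libraries were close to each other. The level was 34.7 ± 1.68 CPM (SD, n = 2), at least 191-fold higher than the floor of 3 counts per control library, and the pairs of libraries gave bounds from 174 to 209. The replicates differed by a fold of 1.07, and with 0.5 CPM added to every value, 69.0% of tested genes had overexpressing replicates at least as far apart as this gene. Per length, ACTL8 reached 79.1 ± 4.56 TPM (SD, n = 2) in the overexpressing cells, above 89.7% of detected genes, so that PHF21B and ACTL8 did not differ there beyond their spread.

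Other actins and actin-related genes were read beside ACTL8. Of 15 tested genes of the family, 3 were called, beside 19.3% of all tested genes, and all 3 were muscle actins that were lower in the overexpressing cells. ACTA2, the smooth muscle actin, had 38 and 68 counts in overexpressing replicates 1 and 3 and 1175 and 531 in control replicates 6 and 8 (log2 fold change -4.47, SE 0.52, adjusted p = 0.00102). Without control replicate 6 its log2 fold change was -3.68, and without overexpressing replicate 3 it was -5.10. ACTA1, the skeletal muscle actin, had 23 and 36 counts against 403 and 108 (-3.59, SE 0.69, adjusted p = 0.00729), with -2.23 without control replicate 6 and -4.28 without control replicate 8. ACTC1, the cardiac actin, had 25 and 59 counts against 443 and 206 (-3.40, SE 0.57, adjusted p = 0.0043), with values from -4.30 (without overexpressing replicate 3) to -2.63 (without control replicate 6) when 1 library was left out, and -2.80 without overexpressing replicate 1. In all 3, the overexpressing libraries stood below both controls, and control replicate 6 was the higher of the controls. ACTG2, the other muscle actin of the list, had 205 and 202 counts against 106 and 134 and was not called (0.31, SE 0.26, adjusted p = 0.413). ACTG1, a cytoplasmic actin and the most abundant gene of the list by CPM, had a log2 fold change of -0.46 (SE 0.19, adjusted p = 0.116). The testis genes ACTL7A and ACTL7B had 1 count or fewer in each library, and ACTL9 had 0 in all 4. The list's median log2 fold change was -0.35, beside -0.00 over all tested genes.

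Germ cell genes were read because ACTL8 is a testis gene. Of 23 in the table, 18 had too few counts to be tested, and 7 of those had 0 in every library, among them SYCP1, SYCP3 and MAEL. ACTL8 was thus counted in cells where most of the listed germ cell genes were at or near 0. Of the 5 tested, 3 were called, beside 19.3% of all tested genes. TDRD12, a Tudor domain protein of the piRNA pathway and the most abundant of the list, was higher, with 1646 and 900 counts in overexpressing replicates 1 and 3 and 415 and 475 in control replicates 6 and 8 (log2 fold change 1.03, SE 0.22, adjusted p = 0.011). It shares 104 exon bases with SLC7A9 on the opposite strand. MEIOB, a meiotic recombination protein, was lower (305 and 292 against 544 and 393 counts, log2 fold change -1.12, SE 0.25, adjusted p = 0.0131), and shares 484 exon bases with an unnamed gene on the same strand. TEX14, a protein of germ cell bridges, was lower too (13 and 13 against 26 and 28 counts, -1.50, SE 0.46, adjusted p = 0.0444). These 3 calls rested on single libraries. Without overexpressing replicate 1 each of the 3 was lost (TDRD12 0.70, adjusted p = 0.086; MEIOB -1.01, adjusted p = 0.0764; TEX14 -1.36, adjusted p = 0.293), and without control replicate 6 the call of TDRD12 alone was made (MEIOB -0.77; TEX14 adjusted p = 0.134). The call of TEX14 was also lost without overexpressing replicate 3 (adjusted p = 0.184) and without control replicate 8 (adjusted p = 0.118). The median log2 fold change was 0.55, beside -0.00 over all tested genes, and it was -0.72 without overexpressing replicate 1, -0.15 without overexpressing replicate 3, -0.72 without control replicate 8 and -1.11 with DESeq2.

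PARVB encodes beta-parvin, which binds integrin-linked kinase (ILK) and F-actin at focal adhesions. The gene (ENSSSCG00000000024) lies on the minus strand of chromosome 5, from 4909649 to 5015339, with 1053 exon bases. It had 949 counts in overexpressing replicate 1, 495 in overexpressing replicate 3, 120 in control replicate 6 and 51 in control replicate 8. The overexpressing libraries were both above both controls, and the libraries within each group were well apart. Its mean was 31.0 ± 10.2 CPM (SD, n = 2), compared with 5.30 ± 3.37 CPM (SD, n = 2) for the controls, a 5.85-fold difference (log2 ratio 2.55), and the pairs of libraries ranged from 3.10-fold to 13.1-fold. The control replicates differed by a fold of 2.63, and with 0.5 CPM added to every value, 1.39% of tested genes had control replicates at least as far apart as this gene. Leaving out control replicate 6 gave a log2 ratio of 3.41, and leaving out control replicate 8 gave 2.01. Per length, PARVB was at 71.2 ± 22.8 TPM (SD, n = 2) in the overexpressing cells and at 12.9 ± 7.66 TPM (SD, n = 2) in the controls, so that in the overexpressing cells ACTL8, PHF21B and PARVB did not differ beyond their spread.

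Of 21 tested genes of the ILK-PINCH-parvin complex and its partners, 10 were called, all lower in the overexpressing cells, beside 10.6% of all tested genes called lower, and 11 were not called, among them ILK itself (log2 fold change -0.35). FERMT3, LIMS2 and ARHGEF7 had log2 fold changes above 0 (0.64, 0.80 and 0.27) and were not called, although LIMS2 was called higher without control replicate 6 (1.42, adjusted p = 0.0469). For the whole list, the median log2 fold change was -0.89, beside -0.00 over all tested genes. FERMT2, a kindlin that activates integrins, had 982 and 1165 counts in overexpressing replicates 1 and 3 and 2100 and 2566 in control replicates 6 and 8 (log2 fold change -1.56, SE 0.19, adjusted p = 0.00123). TLN2, a talin that joins integrins to actin, had 1659 and 2469 counts against 4421 and 4478 (-1.54, SE 0.26, adjusted p = 0.00409). The paralogue PARVA, or alpha-parvin, had 877 and 827 counts against 1420 and 1527 (-1.25, SE 0.14, adjusted p = 0.00101). PARVA and PARVB thus moved in opposite directions. PARVG, the parvin of blood cells, had 0 counts in all 4 libraries. TGFB1I1 (Hic-5), a paxillin relative, had 52 and 74 counts against 138 and 101 (-1.37, SE 0.39, adjusted p = 0.0347), a call that was lost without overexpressing replicate 1 (-1.02, adjusted p = 0.207) and without control replicate 6 (-1.04, adjusted p = 0.103). ACTN4, an actinin and the most abundant gene of the list by CPM, had a log2 fold change of -0.66 (SE 0.16, adjusted p = 0.0166), below the size needed for a call.

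MLPH encodes melanophilin, which links RAB27A on melanosomes to the motor myosin Va and is best known from pigment cells. The gene (ENSSSCG00000032849) lies on the plus strand of chromosome 15, from 137173410 to 137219853, with 4498 exon bases. It had 240 counts in overexpressing replicate 1 and 363 in overexpressing replicate 3, whereas control replicates 6 and 8 had 0 each. MLPH, like ACTL8, was counted in the overexpressing libraries alone, here with replicate 3 the higher. The level was 13.6 ± 5.51 CPM (SD, n = 2), at least 74.6-fold higher than the floor of 3 counts per control library, and the pairs gave bounds from 50.3 to 102. The overexpressing replicates differed by a fold of 1.81, and with 0.5 CPM added to every value, 4.26% of tested genes had overexpressing replicates at least as far apart as this gene. Per length, MLPH was at 7.32 ± 3.03 TPM (SD, n = 2), above 46.8% of detected genes and the lowest in the overexpressing cells of the 4 genes that were higher there.

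RAB27, its effectors and the class V myosins were read next. Of 18 tested, 3 were called, beside 19.3% of all tested genes, and the median log2 fold change was -0.36, beside -0.00 over all tested genes. That median was -0.22 with DESeq2, -0.20 without overexpressing replicate 3 and -0.21 without control replicate 6. The myosin MYO5A, the partner of melanophilin and the most abundant of the list by CPM, had 6117 and 4490 counts in overexpressing replicates 1 and 3 and 3878 and 4754 in control replicates 6 and 8 (log2 fold change -0.17, SE 0.14, adjusted p = 0.402). RAB27A had 407 and 529 counts against 434 and 490. Transcripts of both partners were therefore present in each library. RAB3A, a small GTPase of synaptic vesicles, was higher (336 and 238 against 50 and 56 counts, log2 fold change 1.96, SE 0.27, adjusted p = 0.00205), and shares 1823 exon bases with MPV17L2, which has 0 counts, on the opposite strand. SYTL4, a RAB27 effector of secretory granules, was lower (85 and 111 against 338 and 322 counts, -2.20, SE 0.29, adjusted p = 0.00157). UNC13D, which primes lytic granules, was lower too (15 and 19 against 55 and 36 counts, -1.88, SE 0.49, adjusted p = 0.0242). Its call was lost without overexpressing replicate 1 (-1.59, adjusted p = 0.172), overexpressing replicate 3 (-2.19, adjusted p = 0.0587) or control replicate 6 (-1.44, adjusted p = 0.118).

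Melanocyte markers were read because MLPH is best known from pigment cells. Of 14 in the table, TYRP1, MLANA and TRPM1 had 0 counts in all 4 libraries, and 8 of the 14 had too few to be tested. TYR had 1 and 5 counts in overexpressing replicates 1 and 3 and 7 and 9 in control replicates 6 and 8, and SOX10 had 6 and 3 against 3 and 7. The enzyme DCT was counted more, with 19 and 45 against 42 and 77, and was not called (log2 fold change -1.29, SE 0.55, adjusted p = 0.121), but it was called without overexpressing replicate 3 (-2.20, adjusted p = 0.0423) and with no filter (-1.28, adjusted p = 0.03). MITF, a transcription factor of melanocytes and other cells, was higher (219 and 115 against 15 and 12 counts, log2 fold change 3.12, SE 0.43, adjusted p = 0.00189). The receptor KIT was higher (315 and 184 against 27 and 48 counts, 2.26, SE 0.36, adjusted p = 0.00352). The endothelin receptor EDNRB was higher (393 and 195 against 46 and 74 counts, 1.81, SE 0.36, adjusted p = 0.00818), a call lost without overexpressing replicate 1 (1.39, adjusted p = 0.0643). These 3 have wide roles outside pigment cells, whereas PMEL, the matrix protein of melanosomes, was lower (61 and 61 against 272 and 189 counts, -2.39, SE 0.33, adjusted p = 0.002), and shares 249 exon bases with DGKA and 101 with an unnamed gene on the opposite strand. SLC24A5, a transporter and the most abundant of the list by CPM, had 350 and 343 counts against 294 and 315 (-0.27, SE 0.20, adjusted p = 0.357) and shares 632 exon bases with MYEF2. The list summed to 55.6 and 46.0 CPM in the overexpressing replicates and 45.4 and 42.3 CPM in the controls. Of its 6 tested genes 4 were called, beside 19.3% of all tested genes, and its median log2 fold change was 0.77, beside -0.00 over all tested genes, and it was -0.25 with no filter, -0.26 with DESeq2 and -0.24 without control replicate 6.

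F2RL1 encodes PAR2, a G protein-coupled receptor that trypsin-like proteases switch on by cleaving it. The gene (ENSSSCG00000014091) lies on the plus strand of chromosome 2, from 85732082 to 85747621, with 3089 exon bases. It had 6 counts in overexpressing replicate 1, 19 in overexpressing replicate 3, 376 in control replicate 6 and 241 in control replicate 8. Both overexpressing libraries were far below both controls, and replicate 1 was the lowest. Its mean was 0.577 ± 0.475 CPM (SD, n = 2), compared with 18.9 ± 7.27 CPM (SD, n = 2) for the controls, 32.8-fold lower (log2 ratio -5.03), and the pairs ranged from 15.1-fold to 99.6-fold. The overexpressing replicates differed by a fold of 3.78, and with 0.5 CPM added to every value, 2.83% of tested genes had overexpressing replicates at least as far apart as this gene. Leaving out overexpressing replicate 1 gave a log2 ratio of -4.37, and leaving out overexpressing replicate 3 gave -6.29. Per length, F2RL1 was at 15.9 ± 5.29 TPM (SD, n = 2) in the controls, above 57.4% of detected genes, and at 0.455 ± 0.377 TPM (SD, n = 2) in the overexpressing cells, above 19.6%. In these bulk samples, fewer cells of a type and less RNA per cell cannot be told apart.

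Genes around protease-activated receptors were read beside F2RL1. Of 20 tested receptors, activating proteases, inhibitors and coupled signalling proteins, 10 were lower and 1 was higher, beside 10.6% and 8.61% of all tested genes, and the median log2 fold change was -0.84, beside -0.00 over all tested genes. That median was -0.36 with no filter, over 27 genes, and -1.16 with DESeq2. The 11 calls became 6 without overexpressing replicate 1 and 7 without control replicate 6. The paralogue F2R, or PAR1, the thrombin receptor, had 1871 and 1875 counts in overexpressing replicates 1 and 3 and 4405 and 4080 in control replicates 6 and 8 (log2 fold change -1.64, SE 0.17, adjusted p = 0.000672). F2R and F2RL1 were therefore both lower. The other paralogues were near 0, F2RL2 with 4 counts or fewer and F2RL3 with 1 count or fewer in each library. The prothrombin gene F2 had 3 and 3 counts against 32 and 37, a ratio of summed counts of 15.9-fold lower with a 95% counting interval from 6.92 to 44.7. ARRB1, an arrestin that desensitizes such receptors, had 37 and 31 counts against 323 and 259 (-3.57, SE 0.31, adjusted p = 0.000422). F3, tissue factor, had 40 and 32 counts against 372 and 110 (-3.25, SE 0.61, adjusted p = 0.00672), with -1.995 without control replicate 6 and -3.90 without control replicate 8, and shares 1394 exon bases with ABCD3 on the opposite strand. The other arrestin of the list, ARRB2, had 1987 and 1629 counts against 873 and 729 (0.70, SE 0.17, adjusted p = 0.0196), below the size needed for a call, and the protease F10 had 45 and 43 against 39 and 36 and was not called. GNAI2, an inhibitory G protein and the most abundant of the list by CPM, was lower (6590 and 7728 against 14539 and 13157 counts, -1.40, SE 0.19, adjusted p = 0.00191), with 2222 exon bases shared with SEMA3F on the same strand. Its relative GNAI1 was higher (2474 and 1728 against 727 and 724 counts, 1.06, SE 0.16, adjusted p = 0.00256), a call lost without overexpressing replicate 1 (0.93) and without control replicate 8 (0.98).

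SH3RF2 encodes a RING finger ubiquitin ligase with SH3 domains that also binds protein phosphatase PP1, and it is a relative of POSH (SH3RF1), a scaffold of the JNK cascade. The gene (ENSSSCG00000014410) lies on the plus strand of chromosome 2, from 147292177 to 147411514, with 2151 exon bases. It had 15 counts in overexpressing replicate 1, 16 in overexpressing replicate 3, 604 in control replicate 6 and 367 in control replicate 8. The overexpressing libraries were close to each other and far below both controls. Its mean was 0.686 ± 0.117 CPM (SD, n = 2), compared with 29.8 ± 12.5 CPM (SD, n = 2) for the controls, 43.4-fold lower (log2 ratio -5.44), and the pairs ranged from 27.3-fold to 64.0-fold. Per length, SH3RF2 was at 35.9 ± 13.2 TPM (SD, n = 2) in the controls, above 75.3% of detected genes, and at 0.774 ± 0.139 TPM (SD, n = 2) in the overexpressing cells, above 24.2%.

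The relatives of SH3RF2 and the JNK cascade were read next. SH3RF1 had 561 and 490 counts in overexpressing replicates 1 and 3 and 471 and 536 in control replicates 6 and 8 (log2 fold change -0.40, SE 0.17, adjusted p = 0.113). SH3RF3 had 38 and 27 counts against 40 and 15 (-0.26, SE 0.56, adjusted p = 0.767), and 0.72 without control replicate 6. Neither relative passed the test. Of 23 tested genes of the list, 4 were called, all higher, beside 19.3% of all tested genes called in either direction. The median log2 fold change was -0.04, beside -0.00 over all tested genes, and was 0.06 without overexpressing replicate 1 and 0.12 without control replicate 6. DUSP10, a phosphatase that inactivates JNK and p38, had 63 and 30 counts against 3 and 1, a ratio of summed counts of 16.9-fold with a 95% counting interval from 6.37 to 63.2, and 35.6-fold without control replicate 6 and 10.6-fold without control replicate 8. MAP3K21, a mixed lineage kinase, had 1154 and 907 counts against 218 and 208 (1.80, SE 0.18, adjusted p = 0.000644). MAPK8IP2, a JNK scaffold, had 3910 and 3072 counts against 1037 and 817 (1.43, SE 0.19, adjusted p = 0.00161). DUSP16, another phosphatase of JNK, was the fourth (1.08, SE 0.24, adjusted p = 0.0141), a call lost without overexpressing replicate 1 (adjusted p = 0.054) and without control replicate 8 (0.77). The JNK kinases themselves, MAPK8, MAPK9 and MAPK10, were not called. PPP1CC, a catalytic subunit of PP1 and the most abundant of the list by CPM, had a log2 fold change of 0.19 (SE 0.15, adjusted p = 0.37). JUN, the target of JNK, had 1968 and 1135 counts in the overexpressing replicates but 3693 and 174 in control replicates 6 and 8, so that the controls lay on both sides of the overexpressing cells. JUN was not called, but was called higher without control replicate 6 (2.75) and lower without control replicate 8 (-1.81).

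CYP4B1 encodes a cytochrome P450 of lung and other epithelia that oxidizes fatty acids and some xenobiotics. The gene (ENSSSCG00000003894) lies on the minus strand of chromosome 6, from 164715507 to 164737521, with 5023 exon bases. It had 7 counts in overexpressing replicate 1, 14 in overexpressing replicate 3, 846 in control replicate 6 and 375 in control replicate 8. Both overexpressing libraries were near the floor, and the controls were far above them and well apart from each other. Its mean was 0.477 ± 0.277 CPM (SD, n = 2), compared with 37.8 ± 23.1 CPM (SD, n = 2) for the controls, 79.2-fold lower (log2 ratio -6.31), and the pairs ranged from 31.9-fold to 192-fold. The control replicates differed by a fold of 2.53, and with 0.5 CPM added to every value, 1.15% of tested genes had control replicates at least as far apart as this gene. The log2 ratio was -5.49 without control replicate 6 and -7.07 without overexpressing replicate 3. Per length, CYP4B1 was at 19.4 ± 10.98 TPM (SD, n = 2) in the controls, and the order of mean TPM in the controls was SH3RF2, CYP4B1, PHF21B, F2RL1 and PARVB, with the library values of each overlapping those of the next. In the overexpressing cells CYP4B1 was at 0.231 ± 0.136 TPM (SD, n = 2), the lowest mean of the 7, and its values overlapped those of F2RL1.

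The identity of the reads on CYP4B1 has a limit. The gene shares 140 exon bases, 2.79% of its exon length, with ENSSSCG00000003891, an unnamed gene on the opposite strand that had 0 and 3 counts in overexpressing replicates 1 and 3 and 31 and 11 in control replicates 6 and 8. The unnamed gene's span covers the RefSeq positions of CYP4A24 and CYP4A21, and RefSeq lists the locus of CYP4B1 itself under the name LOC100523909. Both identifiers were thus low in the overexpressing libraries, and the larger counts lay on CYP4B1.

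Other cytochromes P450 and their redox partners were read beside CYP4B1. Of 34 in the table, 18 could be tested, and 4 were higher and 3 lower, beside 8.61% and 10.6% of all tested genes, with a median log2 fold change of 0.11, beside -0.00 over all tested genes. That median was -0.08 with DESeq2, -0.09 without overexpressing replicate 1 and -0.07 without control replicate 8. CYP2S1, an enzyme of epithelia, had 1011 and 393 counts in overexpressing replicates 1 and 3 and 25 and 20 in control replicates 6 and 8 (log2 fold change 4.44, SE 0.44, adjusted p = 0.000655), and 3.80 without overexpressing replicate 1. CYP4V2, a fatty acid hydroxylase of the family of CYP4B1, had 327 and 240 counts against 44 and 45 (2.20, SE 0.28, adjusted p = 0.00146). CYP4V2 and CYP4B1, of the same family, thus moved in opposite directions. Of the other CYP4 genes with a symbol, CYP4F3 had 0 counts in all 4 libraries, and CYP4F22 had 8 and 0 against 15 and 9. The unnamed ENSSSCG00000003891, which covers the RefSeq positions of CYP4A24 and CYP4A21, had 0 and 3 counts against 31 and 11. It was called lower, the direction of CYP4B1, with which it shares exon bases. CYP27B1, which makes active vitamin D, had 508 and 402 counts against 66 and 110 (1.91, SE 0.26, adjusted p = 0.00193). POR, the reductase that passes electrons to microsomal P450s, was higher as well (1.03, SE 0.14, adjusted p = 0.0016). Among the lower genes, CYB5A, a cytochrome b5, had 1748 and 1646 counts against 3510 and 3410 (-1.49, SE 0.15, adjusted p = 0.000686). CYP26A1, which degrades retinoic acid, had 5 and 5 counts against 51 and 24 (-3.36, SE 0.64, adjusted p = 0.00721), with -2.61 without control replicate 6, and the call was lost without overexpressing replicate 1 (-3.21, adjusted p = 0.0507). CYP2R1, a vitamin D hydroxylase, was lower (77 and 148 against 187 and 269 counts, -1.43, SE 0.40, adjusted p = 0.0311), with -2.13 without overexpressing replicate 3, and its call was lost without overexpressing replicate 1 (-0.93) and without control replicate 8 (adjusted p = 0.0543). CYB5B, another cytochrome b5 and the most abundant of the list by CPM, had a log2 fold change of -0.07 (SE 0.15, adjusted p = 0.769).

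**Figure D2:**
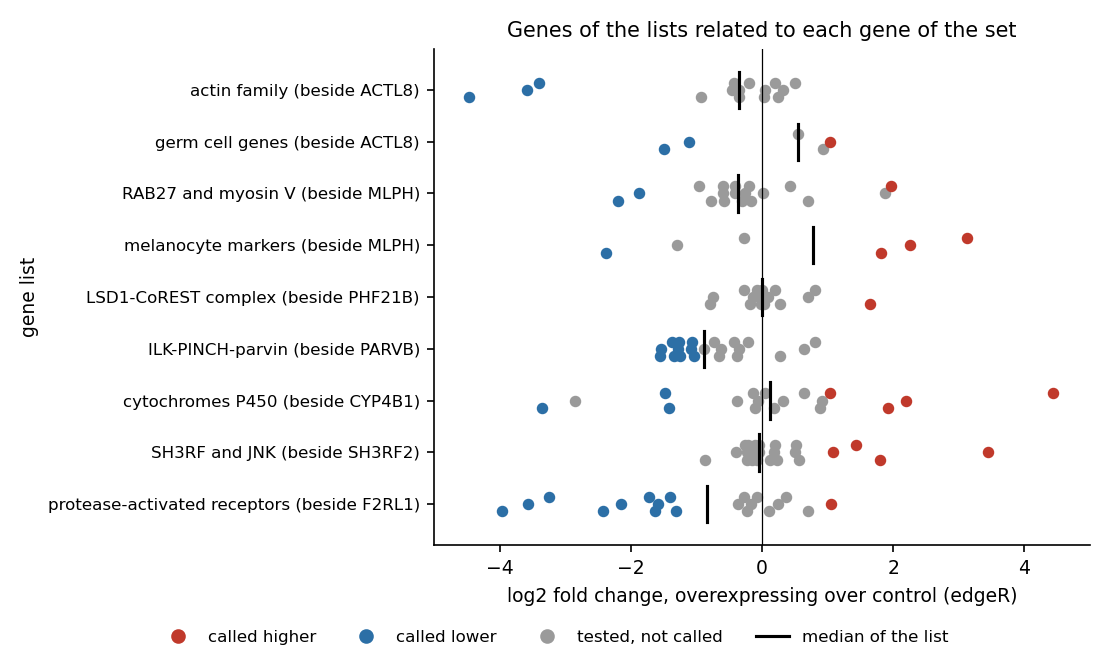
Log2 fold change (edgeR, overexpressing over control) of each tested gene of the 9 lists read beside the 7 genes, in red for genes called higher, blue for genes called lower and grey for the others, with a black line at each list's median. The medians lie at -0.89 for the ILK-PINCH-parvin list and -0.84 for the protease-activated receptor list, and at 0.77 for the 6 tested melanocyte markers.

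The 3 lower genes were read beside markers of other cell types. Of 13 tested markers of simple epithelium, 5 were lower and 2 higher, beside 10.6% and 8.61% of all tested genes (4 calls in place of 7 without overexpressing replicate 1), and the median log2 fold change was -1.37 (-0.78 with no filter), beside -0.00 over all tested genes. The list summed to 338 and 1247 CPM in overexpressing replicates 1 and 3 and to 16067 and 9967 CPM in control replicates 6 and 8, and the keratin KRT8 was its most abundant gene. KRT8 had 6213 and 21095 counts in overexpressing replicates 1 and 3 and 187722 and 130983 in control replicates 6 and 8 (log2 fold change -3.95, SE 0.61, adjusted p = 0.003), with -3.25 without overexpressing replicate 1 and -5.28 without overexpressing replicate 3. KRT18, another keratin, had 343 and 1843 counts against 55405 and 35599 (-5.77, SE 0.82, adjusted p = 0.00223), with -4.96 and -7.65 without the same replicates. Of the overexpressing libraries, replicate 3 also had the more counts of CYP4B1 and F2RL1, whereas SH3RF2 was nearly level, with 15 and 16 counts. The claudin CLDN6 had 441 and 893 counts against 3785 and 3315 (-2.83, SE 0.38, adjusted p = 0.00167), with -3.60 without overexpressing replicate 3. CLDN4 had 1 and 4 against 50 and 18 (-4.17, SE 0.87, adjusted p = 0.0102), with -5.49 without overexpressing replicate 3, -3.15 without control replicate 6 and -4.77 without control replicate 8, and its call was lost without overexpressing replicate 1 (-3.39, adjusted p = 0.0646). GRHL2 and ELF3 had 3 counts or fewer in each library. EPCAM had 198 and 187 counts against 113 and 129 and was not called. CDH1, or E-cadherin, had 631 and 1539 counts against 3753 and 4062 (-2.25, SE 0.42, adjusted p = 0.00676), with -1.66 without overexpressing replicate 1 and -3.21 without overexpressing replicate 3. The higher genes were ESRP1, a splicing factor of epithelia (202 and 99 against 28 and 28 counts, 1.93, SE 0.40, adjusted p = 0.00986), and the transcription factor GRHL1 (249 and 166 against 50 and 73 counts, 1.29, SE 0.31, adjusted p = 0.0176). Both of these calls were lost without overexpressing replicate 1 (ESRP1 1.499, adjusted p = 0.0919; GRHL1 1.12, adjusted p = 0.13).

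Trophoblast markers summed to 56.0 and 71.0 CPM in overexpressing replicates 1 and 3 and to 131 and 102 CPM in control replicates 6 and 8. Of 6 tested, TEAD4 (log2 fold change -2.68), TFAP2C (-2.82) and DAB2 (-3.09) were lower and TFAP2A (3.72) was higher, which is 4 calls beside 19.3% of all tested genes, and the median log2 fold change was -1.37 (-0.20 with DESeq2, over 8 genes). TEAD4 was the most abundant, and the defining markers CDX2 and HAND1 had 0 counts in all 4 libraries, so that this list too held both absent and present genes. Fibroblast markers summed to 1783 and 1528 CPM in the overexpressing replicates and to 1922 and 1834 CPM in the controls. VIM, the most abundant gene, made up much of these sums, with means of 945 CPM (overexpressing) and 1089 CPM (control). Of 12 tested, 4 were lower (PDGFRB, DCN, S100A4 and COL1A1) and 2 were higher (PRRX1 and COL1A2), beside 10.6% and 8.61% of all tested genes. PDGFRB had 28 and 62 counts against 1966 and 978 (log2 fold change -5.49), and DCN had 3 and 1 against 19 and 19. The log2 fold changes of S100A4, COL1A1, PRRX1 and COL1A2 were -2.40, -1.97, 1.62 and 1.08. The list's median log2 fold change was -0.22. The call of COL1A2 was lost without overexpressing replicate 1 (0.65) and without control replicate 8 (0.78), and that of DCN without overexpressing replicate 3 (adjusted p = 0.0557). COL6A3, COL5A1 and LUM had 3 counts or fewer in each library, and COL3A1 had 9 or fewer. The part of these cell types in the changes of the 7 genes was not tested.

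The 7 genes lie on 4 chromosomes, and position was not used to choose them. PHF21B and PARVB are neighbours on chromosome 5, with 524 kb and 5 genes with a symbol (ARHGAP8, PRR5, RTL6, SHISAL1 and PARVG) between them, and both were higher. F2RL1 and SH3RF2 share chromosome 2 but lie 61.5 Mb apart, and ACTL8 and CYP4B1 share chromosome 6, 88.4 Mb apart. F2RL1 and SH3RF2 were both lower, whereas ACTL8 was higher and CYP4B1 lower. Of the genes between PHF21B and PARVB, PRR5, a subunit of mTORC2, was higher, with 2680 and 2200 counts in overexpressing replicates 1 and 3 and 720 and 634 in control replicates 6 and 8 (log2 fold change 1.38, SE 0.16, adjusted p = 0.00104). RTL6 had 171 and 102 counts against 62 and 54 and was not called. ARHGAP8 had 9 counts or fewer, SHISAL1 had 1 or fewer, and PARVG had 0 in every library. The stretch between the pair thus held both called and silent genes.

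Within 500 kb of the 7 genes lie 97 other genes, of which 47 were tested. Of these, 9 were higher and 8 lower, which is 36.2% called beside 19.3% of all tested genes, with a median log2 fold change of -0.16 beside -0.00 (0.01 with no filter and 0.01 with DESeq2). The 17 calls became 11 without overexpressing replicate 1, and the windows of 250 kb and 1000 kb held 7 calls of 23 tested genes and 27 of 82. No test of this share was made. Around ACTL8, the tested neighbours were RCC2 and ARHGEF10L, the latter 125 kb away. ARHGEF10L had 559 and 503 counts against 742 and 657 (log2 fold change -0.87, SE 0.18, adjusted p = 0.0104), below the size needed for a call, which it passed without control replicate 8 (-1.02). On the other side, IGSF21, at 329 kb, had 0 and 18 counts against 0 and 0. The tested neighbours of ACTL8 were thus not called, and IGSF21 was counted in overexpressing replicate 3 alone.

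Around MLPH, the nearest genes with a symbol were at or near 0. RAB17 (16.1 kb) had 0 counts in all 4 libraries and COL6A3 (69.3 kb) had 1 count in overexpressing replicate 3 alone. RAMP1, a receptor activity-modifying protein, was lower (3 and 6 counts in overexpressing replicates 1 and 3 against 24 and 24 in control replicates 6 and 8, log2 fold change -2.83, SE 0.60, adjusted p = 0.0109), with -3.51 without overexpressing replicate 3, and its call was lost without overexpressing replicate 1 (-2.29, adjusted p = 0.124). KLHL30 had 1 and 3 counts against 50 and 23, a ratio of summed counts of 25.2-fold lower with a 95% counting interval from 9.42 to 94.8. That ratio was 15.3 without overexpressing replicate 1, 54.8 without overexpressing replicate 3 and 15.0 without control replicate 6. Both called neighbours of MLPH were thus lower, opposite to MLPH.

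Around PHF21B, the nearest genes with a symbol were ARHGAP8 (14.5 kb), given above, and NUP50 (72.0 kb), a nuclear pore protein. NUP50 had 3739 and 3068 counts in overexpressing replicates 1 and 3 against 1662 and 2133 in control replicates 6 and 8, and was not called (log2 fold change 0.38, SE 0.14, adjusted p = 0.08). FBLN1, an extracellular matrix protein, was lower (527 and 691 against 1413 and 1063 counts, -1.48, SE 0.26, adjusted p = 0.00558). Around PARVB, the nearest gene, PARVG (10.9 kb), was at 0 and SAMM50 (20.6 kb), of the mitochondrial outer membrane, was not called (0.28, SE 0.13, adjusted p = 0.156). None of these nearest genes was called. MPPED1, 400 kb from PARVB, had 349 and 349 counts against 1 and 3, a ratio of summed counts of 127-fold with a 95% counting interval from 49.2 to 466, and 239-fold without control replicate 8. PNPLA3, a lipase of fat droplets, was lower (115 and 44 against 209 and 159 counts, -1.72, SE 0.42, adjusted p = 0.018), with -2.39 without overexpressing replicate 1, and its call was lost without overexpressing replicate 3 (-1.27, adjusted p = 0.0613). An unnamed gene, ENSSSCG00000031417, was higher, with 58 and 30 counts against 10 and 3.

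Around F2RL1, the nearest genes with a symbol were S100Z and F2R. S100Z (19.9 kb) had 11 counts or fewer in each library and F2R (72.9 kb), on the other side, was lower as given above. The receptors F2R and F2RL1 thus stand side by side in the genome and were both lower. SV2C, a synaptic vesicle protein, was lower too (152 and 142 counts in overexpressing replicates 1 and 3 against 316 and 526 in control replicates 6 and 8, log2 fold change -1.96, SE 0.26, adjusted p = 0.00161). PDE8B, a phosphodiesterase that degrades cyclic AMP, was higher (39 and 37 against 3 and 6 counts, 2.60, SE 0.55, adjusted p = 0.0108). That call was lost without overexpressing replicate 1 (2.70, adjusted p = 0.058) and without overexpressing replicate 3 (2.51, adjusted p = 0.0588), and PDE8B shares 840 exon bases with ENSSSCG00000014098 and 124 with another unnamed gene on the opposite strand. ENSSSCG00000014095 was higher as well, with 135 and 82 counts against 17 and 33. The called neighbours of F2RL1 were thus split between the directions.

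Around SH3RF2, the nearest genes were barely counted. GRXCR2 (59.9 kb) had 0 counts in every library and PLAC8L1 (27.5 kb) had 7 or fewer. PRELID2 was higher (452 and 204 counts in overexpressing replicates 1 and 3 against 66 and 31 in control replicates 6 and 8, log2 fold change 2.23, SE 0.47, adjusted p = 0.0105), with 2.98 without control replicate 6, and its call was lost without overexpressing replicate 1 (1.73, adjusted p = 0.0568). POU4F3, a transcription factor of hair cells, had 39 and 13 counts against 0 and 0, at least 6.04-fold higher than the floor of 3 counts per control library. Without overexpressing replicate 1 that bound was 3.44, and POU4F3 had too few counts to be tested. Both called neighbours of SH3RF2 were thus higher, opposite to SH3RF2. Around CYP4B1, the nearest tested gene with a symbol, EFCAB14 (40.4 kb), had 697 and 588 counts against 704 and 1030 (-0.88, SE 0.18, adjusted p = 0.00902), below the size needed for a call, which it passed without control replicate 6 (-1.07). On the other side, STIL, at 446 kb, was not called (-0.01, SE 0.22, adjusted p = 0.98). FAAH, which degrades endocannabinoids, was higher (444 and 278 against 21 and 19 counts, 3.68, SE 0.33, adjusted p = 0.00045), LURAP1 was lower (65 and 58 against 125 and 167 counts, -1.70, SE 0.30, adjusted p = 0.00545), and the unnamed ENSSSCG00000035847 was higher, with 96 and 39 counts against 1 and 4. The unnamed ENSSSCG00000003891, which shares exon bases with CYP4B1, was called lower (adjusted p = 0.0216), with the counts given above.

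**Figure D3:**
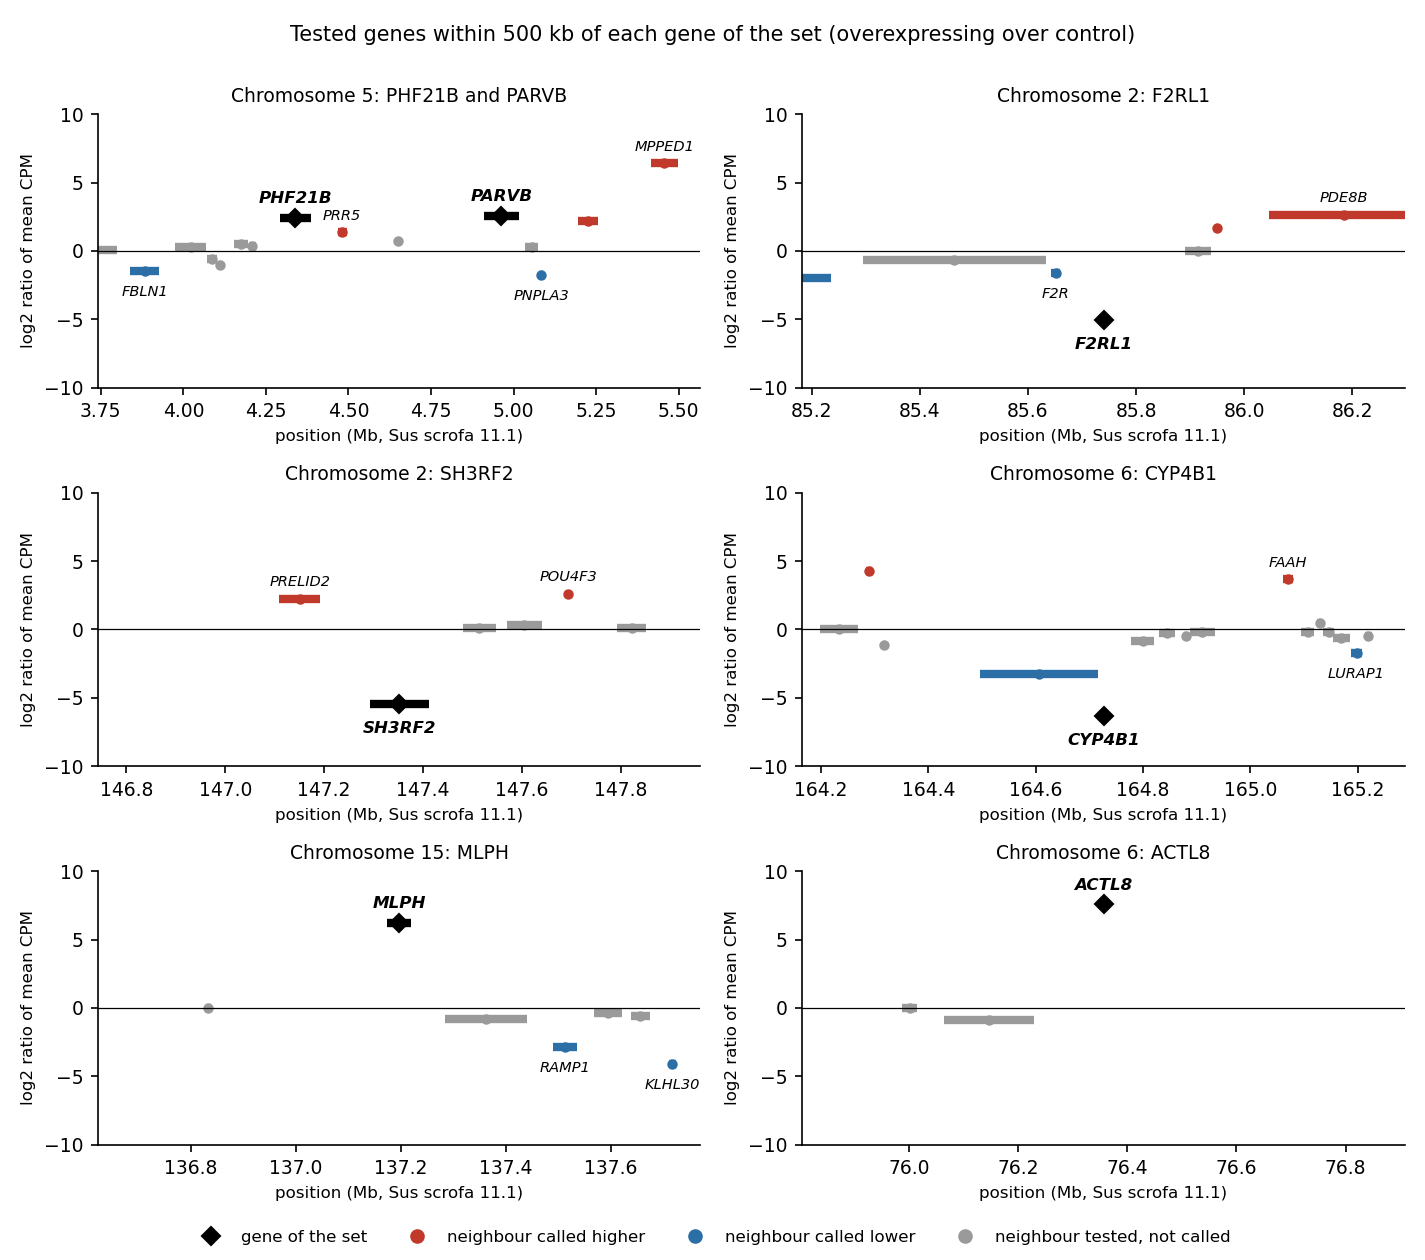
Log2 ratio of mean CPM (overexpressing over control, with groups at the floor set to 3 counts per library) against position on Sscrofa11.1 in Mb for tested genes within 500 kb of each of the 7 genes (black diamonds), with neighbours called higher in red, called lower in blue and others in grey, and bars for the gene bodies. PHF21B and PARVB share a panel, with PRR5 between them, and the ACTL8 panel holds no called neighbour.

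For each of the 7, the genes with a symbol whose values were most alike were found, by the Euclidean distance between log2(CPM + 0.5) over the 4 libraries. This likeness is again a description of the values that chose the set, and no test of the genes found by it is given. For ACTL8 they were the homeobox gene TLX3 (1077 and 750 counts in overexpressing replicates 1 and 3, 2 and 0 in control replicates 6 and 8, distance 0.49), PARP14, an ADP-ribosyltransferase that interferon induces (1370 and 774 against 2 and 0, distance 0.79), and the homeobox gene NKX2-4 (954 and 408 against 3 and 2, distance 1.04). Their ratios of summed counts were 663-fold (95% counting interval 183 to 5476) for TLX3, 778-fold (215 to 6426) for PARP14 and 198-fold (84.5 to 610) for NKX2-4. Without control replicate 8 they were 313-fold for TLX3 and 367-fold for PARP14, and without control replicate 6, which leaves 0 control counts, TLX3 was at least 231-fold and PARP14 at least 269-fold higher than the floor of 3 counts. That of NKX2-4 was 130-fold without overexpressing replicate 1. For MLPH they were SRL, or sarcalumenin (226 and 297 against 2 and 1, distance 0.47), the neural factor POU3F1 (245 and 262 against 2 and 1, distance 0.58) and MPPED1, the neighbour of PARVB (distance 0.69). The ratios were 126-fold (43.0 to 615) for SRL and 123-fold (41.7 to 597) for POU3F1, and without control replicate 6 they were 200-fold and 194-fold. Because these genes were picked by their likeness to ACTL8 and MLPH, their place at the floor in the controls follows from that choice. The intervals describe counting error alone and are no test of these genes.

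For PHF21B the most alike included CASKIN1, a synaptic scaffold (1433 and 851 counts in overexpressing replicates 1 and 3, 149 and 140 in control replicates 6 and 8, distance 0.11), and TOX3, an HMG-box factor (1169 and 921 against 139 and 154, distance 0.36). Their log2 fold changes were 2.49 for CASKIN1 and 2.37 for TOX3. For PARVB they were the transcription factor KLF9 (765 and 454 against 117 and 58, distance 0.37), the chromatin factor ARID5B (812 and 430 against 96 and 56, distance 0.44) and BRINP1 (1125 and 606 against 113 and 67, distance 0.51). In these 3, as in PARVB, to whose values they were matched, replicate 1 was the higher overexpressing library and replicate 6 the higher control. The log2 fold change of KLF9 was 2.29, with 2.98 without control replicate 6, that of ARID5B was 2.52 and that of BRINP1 was 2.76.

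The genes most like the 3 lower genes were found in the same way. SH3RF2 was the nearest of all genes with a symbol to CYP4B1 (distance 0.70), and CYP4B1 was the nearest to SH3RF2, while F2RL1 came next for CYP4B1 (1.34) and was the third for SH3RF2 (1.07). HES4, a target of Notch signalling, was also near SH3RF2, with 24 and 23 counts in overexpressing replicates 1 and 3 and 411 and 380 in control replicates 6 and 8 (distance 0.76, log2 fold change -4.53). C8orf58 was also near CYP4B1, with 14 and 46 against 655 and 343 counts (distance 1.34), and its log2 fold change of -4.50 ranged from -5.75 (without overexpressing replicate 3) to -3.78 (without overexpressing replicate 1), with -3.85 without control replicate 6. F2RL1 was nearest to the kinase LYN (9 and 20 against 285 and 236 counts, distance 0.45, log2 fold change -4.60), with -5.42 without overexpressing replicate 3, and then to the lymphoid factor IKZF1 (20 and 25 against 326 and 268 counts, distance 0.89, log2 fold change -4.18). By the way they were picked, LYN, HES4, IKZF1 and C8orf58 were low in both overexpressing libraries and high in both controls. They lie on chromosomes 4, 6, 9 and 14.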

How the data were processed

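The deposited values are raw counts per gene in 4 RNA-seq libraries, with an exon length for each gene. The submitters' processing notes name bcl2fastq 2.17.1.14, HISAT2 2.0.4, StringTie 1.3.3 and featureCounts 1.6.4. CPM, TPM and all ratios were computed here from these counts. Genes were found by symbol in the reference table, which names 14692 of 24358 identifiers. edgeR 4.0.16 in R 4.3.3 gave TMM factors, filterByExpr filtering, the quasi-likelihood fit and Benjamini-Hochberg adjustment over 13250 genes, and SE is the size of the log2 fold change over the square root of F. The method was tested on simulated data. Counting intervals are exact 95% intervals of a ratio of summed counts, scaled by library size (scipy 1.17.1). Tables and figures used matplotlib 3.10.9, numpy 2.4.6 and pandas 2.3.3 under Python 3.11.15.

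The 7 genes, the 9 lists beside them and the 4 marker lists were chosen with earlier results of these data known. The text names IRF1, the 7 genes and, in each list beside them, the tested gene with the highest mean CPM, up to 3 called genes at each end, and direct paralogues. It also names called genes with a symbol within 500 kb, the nearest gene with a symbol on each side, and the 3 genes most alike. Results for some single genes are left out of the text. Other genes, marker genes and unnamed identifiers were chosen after their values were seen. Alternatives were 3 other normalizations, no filter, DESeq2 1.42.0, each library left out, and windows of 250 and 1000 kb. The ChIP-seq libraries were not analysed, and a promoter motif search was not run, since the reference tables used here held no promoter sequences.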

Additional observations from a re-analysis of the deposited data

How the results depend on the processing

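The log2 ratios of the 7 genes shifted by up to 1.26 (F2RL1) with a library left out and by up to 0.01 under another normalization. The count of genes called over all genes ranged from 1630 to 2687 when each library was left out in turn. The same fits gave 0 to 3 calls in the germ cell list, 6 to 10 in the protease-activated receptor list, 2 to 4 among pluripotency markers, 4 to 8 among epithelium markers and 11 to 17 among the neighbours. The neighbour count was 7 in the 250 kb window and 27 in the 1000 kb window, which hold fewer and more genes. For the other counts the cause was not tested. With a library left out, 1 group holds 1 library, which is assumed to vary like the other group. Of the 61 called genes that the naming rule gave, IRF1 and the genes found by likeness among them, 48 kept their call in each such fit they entered, and 60 kept it under other normalizations, no filter and DESeq2, with TEX14 the exception. The genes found by likeness were picked for values like those of the 7 genes, so their kept calls in these counts are not read as stability. Genes named outside the rule are not in these counts, and calls among them were also lost, such as that of KLF5 with DESeq2. The promoter motif and its alternative were not run. Depth limits ACTL8 and MLPH, whose folds are bounds set by the controls' floor, and CYP4B1, SH3RF2 and F2RL1, with 19 counts or fewer in each overexpressing library.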
